A study of Mus musculus with 8 samples.

Results

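Cytochrome P450 monooxygenases of the Cyp1 to Cyp4 families and the glutathione S-transferase (Gst), sulfotransferase (Sult) and UDP-glucuronosyltransferase (Ugt) genes were examined in cultured embryonic mouse kidneys. The members were picked by a rule on the gene symbol alone (Cyp1 to Cyp4 with a subfamily letter and a number, the Gst classes alpha, mu, pi, theta, omega and zeta, and the numbered Sult and Ugt genes). No measured value is part of the rule, but it was set with earlier results of these data known. They were 110 of the 30890 genes in the count table, namely 58 P450, 21 Gst, 14 Sult and 17 Ugt genes, and all 110 had at least 1 count.

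P450 enzymes insert oxygen into fatty acids, steroids, retinoids and foreign compounds with electrons passed on by the reductase *Por*, and the conjugating enzymes then attach glutathione, sulfate or glucuronic acid so that the product can be exported. In the adult most of these enzymes are richest in liver, while the proximal tubule of the kidney holds its own set, including the Cyp4a fatty acid hydroxylases. The aryl hydrocarbon receptor (AHR) with its partner ARNT switches on the Cyp1 genes, NRF2 acts on many Gst genes, and HNF4A acts on many genes of liver and proximal tubule.

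Kidneys of C57BL/6 mouse embryos at embryonic stage E12.5 were grown for 72 h on a filter membrane over culture medium with 5 μM CHIR99021 or with 0.1% DMSO. CHIR99021 inhibits GSK-3β and thereby stabilizes β-catenin, the effector of canonical Wnt signaling. There were 4 samples in each group, and the study assigned the left kidney of an embryo to DMSO and the right to CHIR99021. Samples of equal replicate number were taken here as a pair, although the paper does not tie these numbers to embryos. The study also left out kidneys in which Wnt/β-catenin target genes had not responded. No allele or transgene was named for either group, and the sex of the embryos was not used here.

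Between 14599082 and 17751992 counts were assigned to genes per sample. Kidney markers such as *Pax2* were present in all 8 samples, whereas 2 of the DMSO samples, kidneys 2 and 4, also held liver transcripts at high levels. The summed level of 20 liver markers in DMSO kidneys 1 to 4 was 77.1, 1606, 22.4 and 1167 CPM (counts relative to library size, scaled by TMM), and in the CHIR99021 kidneys it was 2.30 to 9.74 CPM, with 6 to 10 of the 20 markers at 0. Of 7 liver markers tested 6 were downregulated. *Alb*, the most abundant of them, was at 14.2, 581, 0.117 and 404 CPM with DMSO. The results for named genes below are therefore also given without DMSO kidneys 2 and 4 where this changed the call. DMSO kidney 1 held liver transcripts at a lower level, so this step does not remove all of them. In whole-kidney RNA, fewer cells of a type and less RNA per cell cannot be told apart.

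Of the 110 members, 36 had enough counts to be tested and 74 did not. By edgeR's quasi-likelihood test with Benjamini-Hochberg adjustment over all 16723 tested genes (threshold 0.05), 8 members were upregulated, 14 were downregulated and 14 did not pass. Among all tested genes 23.7% were upregulated and 25.0% were downregulated, and among the tested members these shares were 22.2% and 38.9%. The median log2 fold change of the tested members was -0.21, beside -0.003 over all tested genes. A gene entered the test if enough samples of either group exceeded the minimum count, and 29 of the 36 exceeded it in all 8 samples, 6 in all 4 DMSO samples but not in all CHIR99021 samples, and *Cyp1a1* in all 4 CHIR99021 samples and 2 DMSO samples. *Cyp4a31* and *Ugt1a10* exceeded it in 0 CHIR99021 samples and so were tested through the DMSO samples alone, and the shares are given as a description. Among the 29, 7 were upregulated, 11 were downregulated and 11 did not pass.

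The called genes were grouped by subfamily. The Cyp1 genes (2 of 2 tested) and the mu class of glutathione S-transferases (5 of 6 tested) were upregulated. The theta class (3 of 3), the alpha class (2 of 2), *Cyp4a31* and all 3 tested Ugt genes were downregulated, and of 4 tested Sult genes 2 were downregulated and none upregulated.

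**Figure D1:**
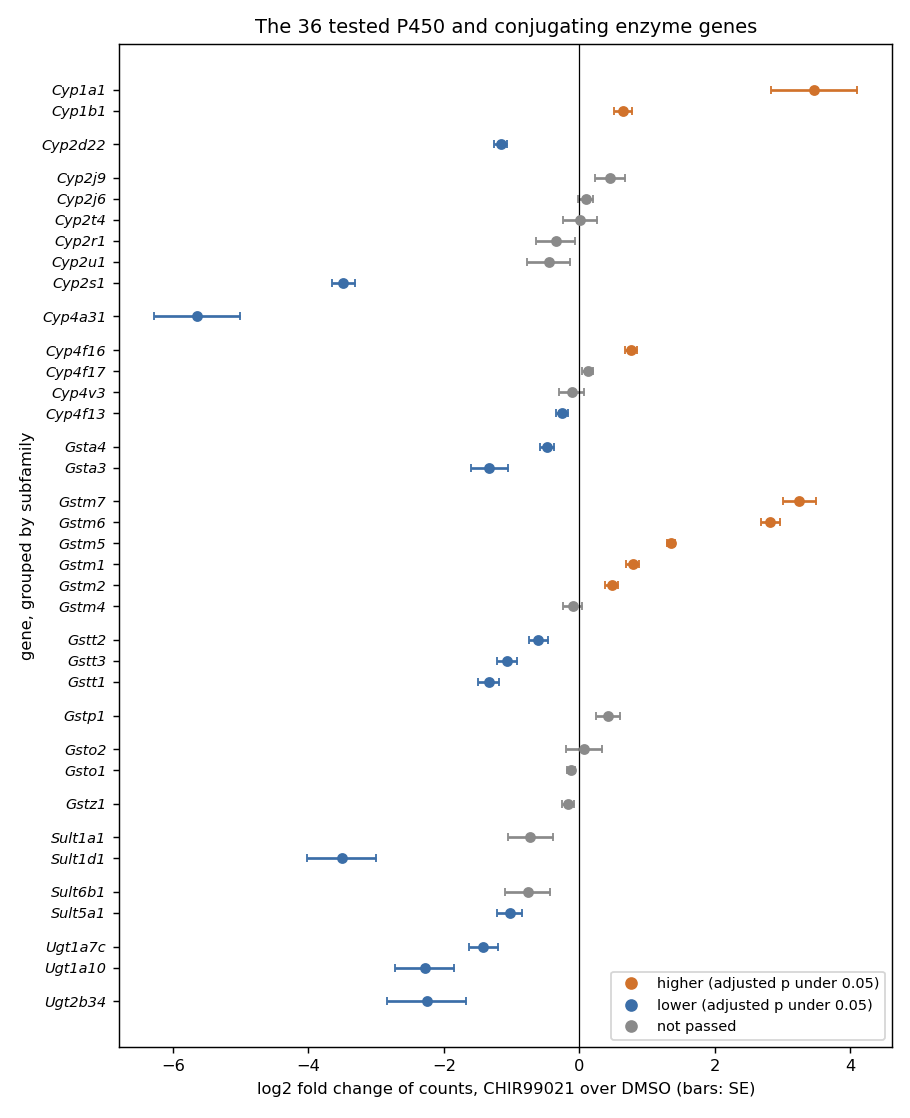
Log2 fold change of counts (CHIR99021 over DMSO, x axis) with its standard error for the 36 tested members, ordered by subfamily, with orange for upregulated, blue for downregulated and grey for genes that did not pass. *Cyp1a1* at 3.47 and *Gstm7* at 3.25 lie farthest to the right, and *Cyp4a31* at -5.65 lies farthest to the left.

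Summed over all its genes, the Gst family took 353 to 435 CPM with DMSO and 534 to 644 CPM with CHIR99021, and the ranges did not overlap. The Sult sum was 15.8 to 24.1 CPM with DMSO and 6.24 to 8.57 CPM with CHIR99021, and the Ugt sum was 17.1 to 28.2 and 5.72 to 7.86 CPM. The P450 sums overlapped, at 277 to 317 and 306 to 374 CPM. These sums weight long and abundant genes most: *Cyp1b1* alone gave 21923 of the 40393 P450 counts.

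On the authors' FPKM scale, which divides by gene length and so allows genes to be compared, the highest members with DMSO were *Gstp1* (88.0 ± 15.9, SD, n = 4) and *Gstm1* (66.9 ± 9.19), whose intervals of mean ± SD overlapped. *Gsta4* (36.3 ± 3.78 FPKM), *Cyp1b1* (27.7 ± 3.66 FPKM) and *Gstm2* (25.0 ± 3.65 FPKM) followed, and the last of these did not differ from *Cyp1b1* beyond the spread. With CHIR99021, *Gstp1* (108 ± 21.5 FPKM) and *Gstm1* (105 ± 9.99 FPKM) again had the highest levels. *Gstm5* (43.6 ± 0.788 FPKM), *Cyp1b1* (39.4 ± 6.06 FPKM) and *Gstm7* (39.2 ± 10.1 FPKM) came next and lay within each other's spread.

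The 2 tested Cyp1 genes were upregulated, and so was *Ahr*, the gene of the receptor that controls them. Genes that AHR acts on were not examined as a set, and the part of AHR in these changes was not tested. *Ahrr* and *Tiparp*, given below, were picked as called genes with the smallest p of their list. They therefore do not stand for all genes that AHR acts on, and those that fell or did not change may be missing here. *Cyp1a1*, which oxidizes polycyclic aromatic hydrocarbons and is the best known AHR target, was at 0.0541, 0.856, 0.176 and 1.64 CPM in DMSO kidneys 1 to 4 and at 8.30, 7.90, 4.52 and 8.61 CPM in CHIR99021 kidneys 1 to 4. Every treated kidney was above every control, and the controls themselves spread widely, with kidneys 2 and 4 highest. The fold was 11.1 (log2 fold change 3.47, SE 0.64, adjusted p = 0.00217, edgeR's quasi-likelihood test). Without DMSO kidneys 2 and 4 the log2 fold change was 5.92 (adjusted p = 6.15e-06), and without DMSO kidney 4 alone it was 4.32.

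*Cyp1b1*, which acts on estradiol and retinol as well as on hydrocarbons, was at 114, 140, 133 and 157 CPM with DMSO and at 172, 252, 208 and 217 CPM with CHIR99021. The groups did not overlap, so each treated kidney was above every control (log2 fold change 0.64, SE 0.13, adjusted p = 0.00331). *Cyp1a2*, the liver member of the family, had 6 counts in all DMSO samples together and 0 with CHIR99021 and was not tested.

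*Ahr*, the receptor itself, was at 30.3, 35.9, 28.5 and 33.4 CPM with DMSO and at 142, 191, 164 and 178 CPM with CHIR99021. Its lowest treated kidney stood far above its highest control (5.27-fold, log2 fold change 2.40, SE 0.10, adjusted p = 1.66e-08). *Ahrr*, the AHR repressor, which is itself switched on by AHR and competes with it for ARNT, was at 4.33, 4.05, 2.99 and 4.19 CPM with DMSO and 49.4, 36.5, 41.8 and 47.9 CPM with CHIR99021. The rise was 11.3-fold without overlap (log2 fold change 3.49, SE 0.13, adjusted p = 8.79e-10). *Tiparp*, another AHR target that restrains the receptor, rose from 47.3 to 54.0 CPM to 80.1 to 91.4 CPM (log2 fold change 0.74, adjusted p = 6.31e-07). *Arnt* was at 129 to 151 CPM and 144 to 156 CPM and did not pass (log2 fold change 0.13, adjusted p = 0.0624). With the replicate number as a block *Arnt* passed (adjusted p = 0.0379).

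**Figure D2:**
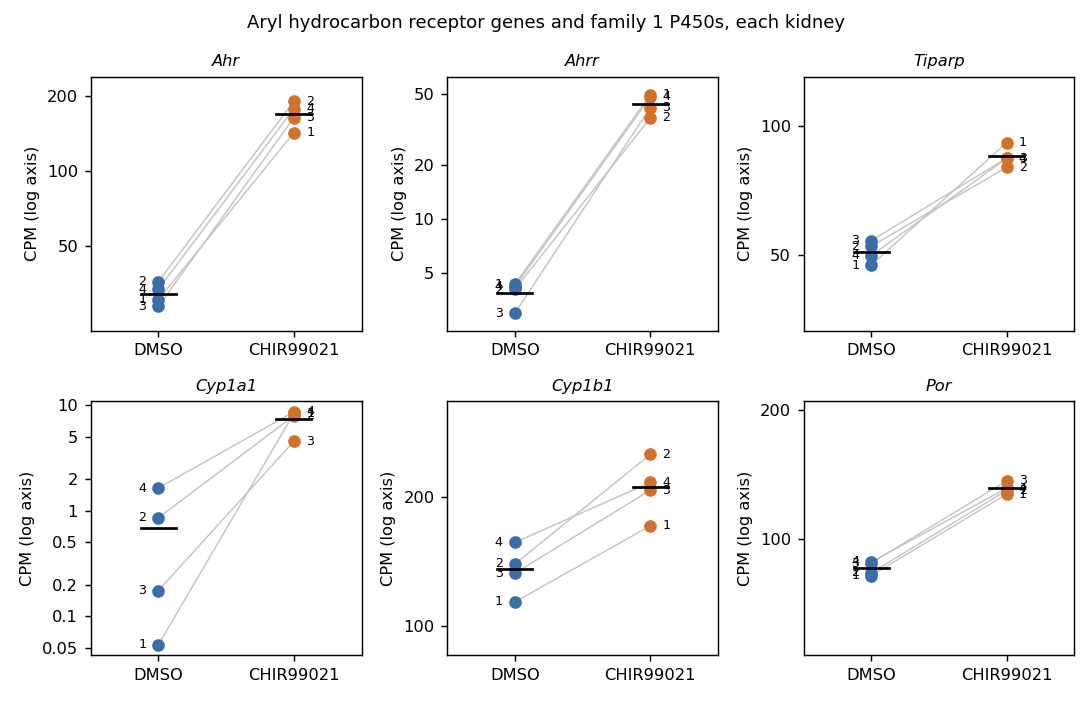
CPM on log axes in DMSO (blue) and CHIR99021 (orange) kidneys, numbered by replicate, with lines joining equal numbers and bars at the group means, for *Ahr*, *Ahrr*, *Tiparp*, *Cyp1a1*, *Cyp1b1* and *Por*. All 4 treated kidneys lie above all 4 controls in each panel, and *Cyp1a1* in DMSO ranges from 0.0541 to 1.64 CPM.

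The AHR and ARNT pair binds the core GCGTG. It was searched on both strands in the RefSeq promoters (250 bases before to 50 after a start, GRCm38.p6), where 32.4% of all 32851 promoters held at least 1 and 11.1% at least 2 matches. The promoter entries of *Cyp1a1*, *Cyp1b1* and *Tiparp* held 1 match each and that of *Ahrr* held 3. Outside the mu class, 1 match each was also in the entries of the downregulated *Sult1d1* and the upregulated *Cyp4f16*. The same held for *Cyp2j9*, *Cyp2r1*, *Cyp4v3* and *Gstp1*, which did not pass. The bases before the start of *Ahrr* (chr13:74292332-74292581, minus strand), *Cyp1a1* (chr9:57697363-57697612, plus strand) and *Cyp1b1* (chr17:79715062-79715311, minus strand) are shown because these genes moved with *Ahr*, with GCGTG or its reverse complement CACGC in capitals.
Ahrr: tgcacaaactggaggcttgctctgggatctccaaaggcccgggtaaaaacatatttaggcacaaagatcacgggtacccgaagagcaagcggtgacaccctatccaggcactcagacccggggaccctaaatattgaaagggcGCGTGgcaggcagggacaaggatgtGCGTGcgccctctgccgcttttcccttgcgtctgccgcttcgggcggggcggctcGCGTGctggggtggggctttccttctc
Cyp1a1: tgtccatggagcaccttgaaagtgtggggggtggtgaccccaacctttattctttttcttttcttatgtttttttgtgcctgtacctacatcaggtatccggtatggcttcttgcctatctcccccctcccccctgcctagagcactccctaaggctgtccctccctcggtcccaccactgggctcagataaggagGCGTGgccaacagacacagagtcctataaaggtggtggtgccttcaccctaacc
Cyp1b1: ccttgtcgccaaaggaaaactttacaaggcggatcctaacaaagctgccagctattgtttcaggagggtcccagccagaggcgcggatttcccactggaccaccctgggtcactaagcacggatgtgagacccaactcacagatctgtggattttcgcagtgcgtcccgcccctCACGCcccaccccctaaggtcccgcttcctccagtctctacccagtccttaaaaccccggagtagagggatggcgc
A match is a run of letters and is no evidence of binding. The Wnt effector TCF/LEF motif CTTTGAT, held by 3.73% of promoters, was in none of these 3 entries, and the variant CTTTGTT (5.85%) was in that of *Cyp1b1*.

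The mu class genes lie side by side on chromosome 3 (GRCm38, 107895821 to 108044894, 149.1 kb), and the part of the cluster next to *Gstm5* changed most. These enzymes join glutathione to electrophilic compounds. In order along the chromosome, the log2 fold changes were 1.35 (SE 0.06) for *Gstm5*, 3.25 (SE 0.24) for *Gstm7*, 2.82 (SE 0.15) for *Gstm6*, 0.48 (SE 0.10) for *Gstm2*, 0.79 (SE 0.10) for *Gstm1* and -0.10 (SE 0.14) for *Gstm4*. *Gstm3*, between *Gstm6* and *Gstm2*, was not tested.

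*Gstm7* was at 4.98, 6.79, 9.20 and 6.74 CPM with DMSO and at 47.1, 57.2, 75.7 and 83.2 CPM with CHIR99021 (9.51-fold, adjusted p = 1.48e-05). *Gstm6* was at 3.25, 3.54, 2.17 and 2.81 CPM and between 18.1 and 23.1 CPM in the treated kidneys (7.08-fold, adjusted p = 1.33e-08). Neither gene had overlapping groups, and the treated kidneys of *Gstm7* spread more than those of *Gstm6*. *Gstm5* was the tightest of the class, at 21.7 to 24.3 CPM with DMSO and 57.1 to 59.7 CPM with CHIR99021 (2.56-fold, adjusted p = 2.72e-09).

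The most abundant mu gene, *Gstm1*, was at 75.5, 101, 103 and 97.8 CPM with DMSO and 145, 171, 156 and 178 CPM with CHIR99021 (1.73-fold, adjusted p = 0.000111). *Gstm2* was at 35.0 to 46.9 and 48.5 to 60.5 CPM (1.39-fold, adjusted p = 0.00183). Both pairs of ranges stood apart. *Gstm4* at the far end overlapped between the groups, at 7.63 to 11.9 and 8.42 to 9.53 CPM (adjusted p = 0.589).

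Reads of these genes could mostly be told apart: the share of 50-base stretches also found in other genes was 0.532% for *Gstm7*, 5.97% for *Gstm6*, 18.9% for *Gstm1* and 28.8% for *Gstm3*. *Gstm5* overlaps *4933431E20Rik* on the opposite strand over 13.9% of its exon bases, and that gene was also upregulated (log2 fold change 0.48, adjusted p = 0.00246). Of the nearest tested genes outside the cluster, *Csf1* (0.18, adjusted p = 0.497) and *Ahcyl1* (-0.04, adjusted p = 0.661) did not pass, and *Ampd2* was upregulated by 0.17 on the log2 scale (adjusted p = 0.00641).

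**Figure D3:**
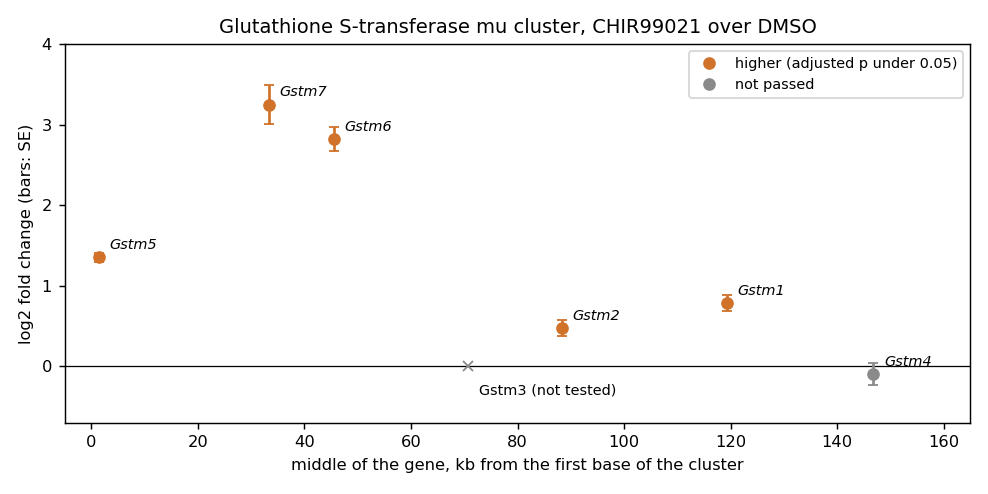
Log2 fold change (CHIR99021 over DMSO, y axis, bars SE) of the mu class genes against the distance of the middle of each gene from the first base of the cluster in kb (x axis). The values peak at *Gstm7* (3.25) and *Gstm6* (2.82) and end near 0 at *Gstm4*, and the cross marks *Gstm3*, which was not tested.

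The promoter entry of *Gstm5* held 2 GCGTG matches and 1 match to the NRF2 motif TGACNNNGC (12.4% of all promoters) that overlaps one of them, and 1 of the 2 entries of *Gstm7* held a TGACNNNGC match. *Gstm6*, *Gstm2* and *Gstm4* held neither of these motifs, and *Gstm1* held 1 GCGTG. The bases before *Gstm5* (chr3:107895604-107895820, plus strand) are shown with GCGTG or CACGC in capitals, as the mu gene with the most matches.
Gstm5: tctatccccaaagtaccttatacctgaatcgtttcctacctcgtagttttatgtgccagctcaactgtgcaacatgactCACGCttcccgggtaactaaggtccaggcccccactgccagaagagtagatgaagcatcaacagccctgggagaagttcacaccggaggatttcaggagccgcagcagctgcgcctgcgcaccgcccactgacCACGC
*Nfe2l2*, which encodes NRF2, was at 150 to 163 CPM with DMSO and 203 to 207 CPM with CHIR99021 and was upregulated (log2 fold change 0.38, adjusted p = 7.52e-06), and *Keap1*, which marks NRF2 for degradation, was downregulated (-0.39, adjusted p = 0.00042). Genes widely used as NRF2 targets went different ways. *Slc7a11*, the cystine importer, was upregulated (log2 fold change 1.47, adjusted p = 0.0273), and its DMSO values of 8.82, 9.19, 9.02 and 28.9 CPM left kidney 4 apart. Without DMSO kidneys 2 and 4 its log2 fold change was 2.09. *Nqo1* (0.70, adjusted p = 0.215), *Hmox1* (0.01, adjusted p = 0.975) and *Gclm* (0.02, adjusted p = 0.952) did not pass, *Gclc* was at -0.32 (adjusted p = 0.0552) and *Gsr* was downregulated (-0.35, adjusted p = 0.0156, and without DMSO kidneys 2 and 4 a log2 fold change of -0.31, adjusted p = 0.107). With the replicate number as a block *Nqo1* (adjusted p = 0.000196) and *Gclc* (adjusted p = 0.000157) passed, in opposite directions.

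The theta class, which acts on small halogenated compounds, was downregulated as a whole among its tested genes. These 3 genes lie within 63.3 kb on chromosome 10. *Gstt1* was at 7.95, 9.19, 9.61 and 12.0 CPM with DMSO and at 3.81, 3.95, 3.59 and 3.94 CPM with CHIR99021 (2.53-fold lower, log2 fold change -1.34, SE 0.15, adjusted p = 1.07e-05). *Gstt3* was at 11.0 to 16.6 CPM and 5.55 to 7.49 CPM (log2 fold change -1.07, adjusted p = 4.8e-05). *Gstt2* was at 9.14 to 9.95 CPM and 5.00 to 7.93 CPM (log2 fold change -0.61, adjusted p = 0.00334). None of the 3 had overlapping groups. *Gstt4* had 1 count with DMSO and 3 with CHIR99021 and was not tested. Of *Gstt3*, 13.6% of the exon bases lie in *Gm20441* on the same strand.

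In the alpha class, *Gsta3* was at 3.90, 8.28, 7.50 and 8.31 CPM with DMSO and at 1.75, 2.95, 3.44 and 3.02 CPM with CHIR99021 (log2 fold change -1.33, SE 0.27, adjusted p = 0.00142). *Gsta4*, which detoxifies products of lipid peroxidation, was at 42.6, 41.1, 50.3 and 41.9 CPM and at 27.0, 29.0, 32.7 and 37.3 CPM (log2 fold change -0.48, SE 0.10, adjusted p = 0.00187). Both genes were lower in every treated kidney than in any control. *Gsta2* (30 and 14 counts in all) and *Gsta1* (0 and 1) were not tested.

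The remaining classes did not pass. *Gstp1* was higher in all 4 treated kidneys than in the controls of equal number (47.8, 71.7, 62.6 and 72.6 CPM with DMSO, 78.8, 82.9, 70.8 and 109 CPM with CHIR99021). The groups overlapped, and it did not pass (log2 fold change 0.43, SE 0.17, adjusted p = 0.0749). With the replicate number as a block it passed (adjusted p = 0.00499). It also passed without CHIR99021 kidney 3 (adjusted p = 0.0465) and without DMSO kidneys 2 and 4 (log2 fold change 0.62, adjusted p = 0.0448). Of *Gstp1*, 33.7% of the 50-base stretches also occur in *Gstp2*. *Gstz1*, an enzyme of tyrosine breakdown, was at 38.6 to 47.8 and 34.9 to 44.5 CPM (log2 fold change -0.17, adjusted p = 0.124, 0.033 with the block and 0.0281 without DMSO kidney 4). *Gsto1* (33.7 to 38.1 and 31.0 to 34.2 CPM, adjusted p = 0.139) and *Gsto2* (0.866 to 1.18 and 0.749 to 1.29 CPM, adjusted p = 0.854) overlapped between the groups.

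The largest falls among the tested members were in *Cyp4a31*, *Sult1d1* and *Cyp2s1*. *Cyp4a31*, a fatty acid hydroxylase of the Cyp4a subfamily, was at 24.6, 18.8, 5.98 and 12.0 CPM in DMSO kidneys 1 to 4 and at 0.437, 0.0669, 0.359 and 0.329 CPM with CHIR99021. The groups lay far apart although the controls ranged widely (50.1-fold lower, log2 fold change -5.65, SE 0.63, adjusted p = 0.000147). The other Cyp4a genes had fewer counts and were not tested, but none had a count in any treated kidney: *Cyp4a10* had 13, 6, 1 and 2 counts with DMSO, *Cyp4a14* had 6, 17, 3 and 1, and *Cyp4a32* had 4, 3, 2 and 2. Set against a floor of 3 counts over the 4 treated samples, their pooled DMSO levels were 6.45-fold, 7.91-fold and 3.22-fold higher. These folds leave out the spread between the controls, where single kidneys had as few as 1 count, and so are no lower bounds. In an edgeR fit without the expression filter all 3 passed (adjusted p = 0.00109, 0.00116 and 0.0145). With DESeq2 *Cyp4a10* (adjusted p = 0.00837) and *Cyp4a14* (adjusted p = 0.00337) passed and *Cyp4a32* did not (adjusted p = 0.061). Shared 50-base stretches made up 20.6% of *Cyp4a31*, 29.8% of *Cyp4a10*, 43.8% of *Cyp4a32* and 0.235% of *Cyp4a14*, and so the split of reads between the first 3 is uncertain.

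*Sult1d1*, a sulfotransferase for catecholamines, was at 14.7, 10.3, 4.10 and 10.2 CPM with DMSO and at 1.62, 0.736, 0.287 and 0.723 CPM with CHIR99021 (11.4-fold lower, log2 fold change -3.51, SE 0.51, adjusted p = 0.000509). The groups did not overlap, kidney 1 was highest and kidney 3 lowest in both, and no 50-base stretch was shared with another gene. With kidneys 1 and 3 of each group alone, the log2 fold change was -3.25 and the call was lost (adjusted p = 0.0987).

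*Cyp2s1*, a P450 found mainly outside the liver in epithelia, was at 25.8, 18.3, 16.7 and 20.9 CPM with DMSO and at 1.87, 1.87, 2.08 and 1.45 CPM with CHIR99021. It had narrow groups at both levels (11.2-fold lower, log2 fold change -3.49, SE 0.17, adjusted p = 8.36e-09). *Cyp2d22* was at 22.9, 22.9, 27.9 and 22.2 CPM and at 10.9, 11.4, 9.83 and 10.9 CPM (2.23-fold lower, log2 fold change -1.16, SE 0.10, adjusted p = 8.47e-07), again without overlap.

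The fall of *Cyp4a31* and *Sult1d1* came with that of proximal tubule transcripts. The summed level of 14 proximal tubule markers was 237, 220, 60.0 and 130 CPM in DMSO kidneys 1 to 4 and 78.6, 75.8, 55.7 and 57.8 CPM with CHIR99021. The ranges of this sum overlapped, with DMSO kidney 3 below CHIR99021 kidneys 1 and 2. Abundant genes weigh most in it, and 2 of them went opposite ways. *Aqp1* gave 34.8 to 48.8 CPM of the sums with CHIR99021 and 9.84 to 30.0 CPM with DMSO. *Lrp2* gave 7.82 to 20.3 CPM with CHIR99021 and 29.5 to 125 CPM with DMSO. DMSO kidneys 1, 2, 4 and 3 came in this falling order for the marker sum, for *Cyp4a31* and for *Sult1d1*. Of the 11 markers tested 7 were downregulated and 4 did not pass. Without DMSO kidneys 2 and 4 the calls of *Lrp2* (log2 fold change -2.49, adjusted p = 0.0535) and *Pdzk1* (-1.68, adjusted p = 0.0851) were lost. The 4 that did not pass included *Aqp1*, at 9.84 to 30.0 CPM with DMSO and 34.8 to 48.8 CPM with CHIR99021 (log2 fold change 0.89, adjusted p = 0.0664). The 2 groups did not overlap for *Aqp1*, and with the embryo as a block it passed (log2 fold change 0.96, adjusted p = 0.024). *Hnf4a* was at 44.8, 44.0, 15.7 and 32.5 CPM in the controls and 7.11, 4.15, 2.08 and 3.75 CPM after treatment (log2 fold change -2.99, adjusted p = 0.00154, SE 0.46). The part of the number of proximal tubule cells in the values of these members was not tested.

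**Figure D4:**
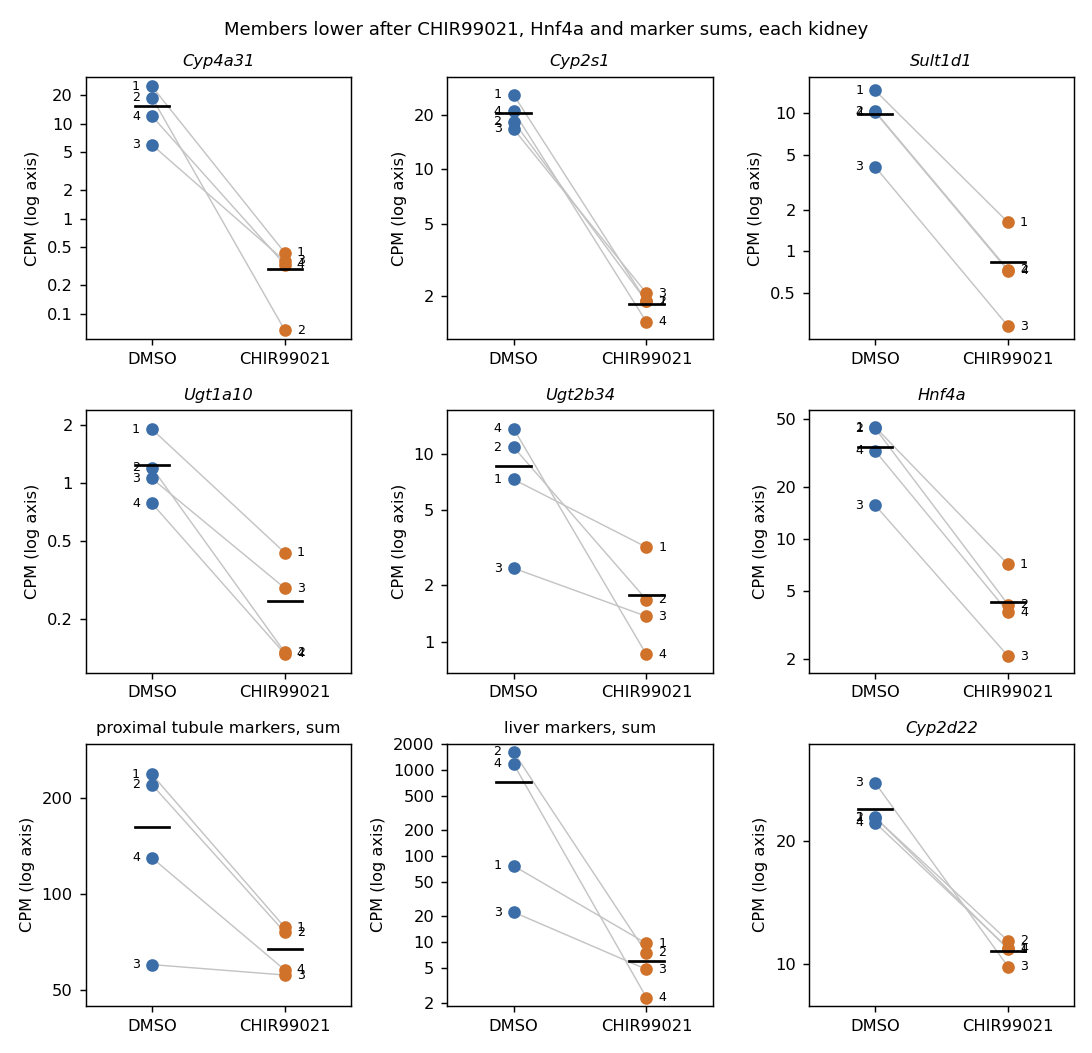
CPM on log axes in each DMSO (blue) and CHIR99021 (orange) kidney, numbered by replicate with lines joining equal numbers and bars at the group means, for 6 downregulated members, *Hnf4a* and the summed proximal tubule and liver markers. *Ugt2b34* is the only member shown whose groups overlap, and the liver marker sum reaches 1606 and 1167 CPM in DMSO kidneys 2 and 4 alone.

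The tested Ugt genes, which attach glucuronic acid, were all downregulated. *Ugt1a7c* was at 7.41, 9.65, 11.0 and 8.77 CPM with DMSO and at 1.93, 3.95, 4.16 and 3.75 CPM with CHIR99021 (log2 fold change -1.42, SE 0.22, adjusted p = 0.000143). *Ugt1a10* was at 1.89, 1.20, 1.05 and 0.785 CPM and at 0.437, 0.134, 0.287 and 0.131 CPM (log2 fold change -2.28, SE 0.44, adjusted p = 0.000799). The groups of neither gene overlapped. Ugt1a genes are alternative first exons joined to common last exons, 58.1% of the exon bases of *Ugt1a10* and 54.6% of those of *Ugt1a7c* lie in other Ugt1a genes on the same strand, and so the values of single Ugt1a genes are uncertain. The 6 untested Ugt1 genes together had 20, 41, 33 and 30 counts with DMSO and 8, 6, 15 and 7 with CHIR99021, *Ugt1a6a* having 61 counts in all with DMSO and 21 with CHIR99021.

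*Ugt2b34* was at 7.30, 10.8, 2.46 and 13.6 CPM with DMSO and at 3.18, 1.67, 1.36 and 0.855 CPM with CHIR99021 (log2 fold change -2.25, SE 0.59, adjusted p = 0.014). Control kidney 3 was below treated kidney 1, and kidneys 2 and 4, which held the most liver transcripts, were the highest controls. Without them the log2 fold change was -1.47 and the call was lost (adjusted p = 0.0696).

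Of the other sulfotransferases, *Sult5a1* was at 5.14 to 7.09 CPM with DMSO and 2.30 to 3.82 CPM with CHIR99021 and was downregulated (log2 fold change -1.03, SE 0.19, adjusted p = 0.000596). *Sult1a1*, which acts on phenols, was at 0.920, 2.06, 1.52 and 2.29 CPM and at 1.06, 1.14, 1.29 and 0.592 CPM and did not pass (log2 fold change -0.72, adjusted p = 0.0894), and its value without DMSO kidneys 2 and 4 was -0.26. It passed without DMSO kidney 1 (adjusted p = 0.0258). *Sult6b1* was at 0.920 to 1.29 CPM and 0.268 to 0.855 CPM. Its groups did not overlap, but it did not pass (adjusted p = 0.0774).

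The Cyp4f genes, which hydroxylate leukotrienes and long fatty acids, went in both directions within 478.9 kb of chromosome 17. *Cyp4f16* was at 15.4 to 18.3 CPM with DMSO and 26.6 to 32.7 CPM with CHIR99021 and was upregulated (log2 fold change 0.77, SE 0.09, adjusted p = 1.47e-05). *Cyp4f13* was at 19.4 to 21.6 CPM and 15.4 to 18.9 CPM (1.2-fold lower, log2 fold change -0.26, adjusted p = 0.0249), and this call was lost without CHIR99021 kidney 1 or 4 or DMSO kidney 3 or 4 (adjusted p up to 0.0735). *Cyp4f17*, between 17.3 and 21.2 CPM in all samples, did not pass (adjusted p = 0.238). *Cyp4f39* had 9, 13, 9 and 9 counts with DMSO and 1, 0, 1 and 1 with CHIR99021, which was under the filter, and passed in the fit without it (adjusted p = 0.000122).

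The other tested P450 genes did not pass. These were *Cyp2j6* and *Cyp2j9*, of a subfamily that forms epoxides of arachidonic acid (19.2 to 25.7 CPM, adjusted p = 0.504, and 2.64 to 5.93 CPM, adjusted p = 0.108), the vitamin D hydroxylase *Cyp2r1* (adjusted p = 0.336), *Cyp2u1* (adjusted p = 0.258), *Cyp2t4* (adjusted p = 0.969) and *Cyp4v3* (adjusted p = 0.648). *Cyp2j9* was higher in all 4 treated kidneys than in the controls of equal number (log2 fold change 0.45, SE 0.22). It passed without CHIR99021 kidney 4 (adjusted p = 0.0453).

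The 74 untested members shared 1851 counts, and 35 of them had fewer than 10. Their summed counts were 209, 707, 145 and 413 in DMSO kidneys 1 to 4 and 105, 97, 87 and 88 in the CHIR99021 kidneys, so that kidneys 2 and 4 gave 76.0% of the counts with DMSO. DMSO kidneys 2 and 4 were both above kidneys 1 and 3 in 27 of the 74 genes (36.5%), beside 11.2% of all 14167 untested genes with a count. Among tested members this was so for 8 of 36 (22.2%), beside 14.2% of all tested genes.

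The pattern was sharpest in the subfamilies of the liver. The 7 Cyp3 genes together had 4, 237, 0 and 69 counts in DMSO kidneys 1 to 4 and 0, 1, 1 and 4 with CHIR99021, so that kidneys 2 and 4 held 98.7% of the counts with DMSO. *Cyp3a11*, the main drug-oxidizing Cyp3a of mouse liver, had 2, 175, 0 and 37 counts and 0 in every treated kidney, and *Cyp3a16*, a fetal liver form, had 0, 23, 0 and 14 counts and likewise 0. The 21 untested Cyp2a to Cyp2g genes had 29, 170, 9 and 103 counts with DMSO and 3 to 11 with CHIR99021. *Cyp2d26* (18, 86, 6 and 47 counts with DMSO), *Cyp2c68* (1, 18, 0 and 12) and *Cyp2c70* (0, 10, 0 and 16) followed the liver markers. *Gstm3* (0, 27, 0 and 49 counts with DMSO and 0 to 3 with CHIR99021) and *Ugt2b35* (1, 14, 1 and 22 counts with DMSO) did the same.

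The 10 untested Sult genes had 36, 53, 31 and 37 counts with DMSO and 18, 39, 25 and 27 with CHIR99021. The 7 untested Ugt2 genes had 24, 47, 12 and 47 counts with DMSO and 29, 8, 6 and 8 with CHIR99021, so that DMSO kidneys 2 and 4 held 72.3% of the counts with DMSO, and *Ugt2b37* gave 14 of the 29. *Cyp4f15* had 1, 14, 1 and 1 counts with DMSO and 0 in every treated kidney, so that kidney 2 alone carried it. *Cyp4f18* (19 and 9 counts in all), *Cyp4x1* (22 and 8) and *Cyp2j11* (24 and 11) were low throughout, as were *Gstp2* (29 and 39) and *Gstp3* (14 and 5). The epoxygenase *Cyp2j5* had 11, 19, 1 and 10 counts with DMSO and 3, 1, 1 and 0 with CHIR99021. Among the rest, *Cyp4b1* (34 and 26 counts in all), *Sult2b1* (39 and 33) and *Sult4a1* (33 and 36) were near the same in both groups, and *Cyp2w1* had 0 counts with DMSO and 4 with CHIR99021. The bile acid sulfotransferases *Sult2a1*, *Sult2a2*, *Sult2a3* and *Sult2a8* had at most 4 counts each, and *Cyp2e1* and *Ugt3a2* had 1 each.

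**Figure D5:**
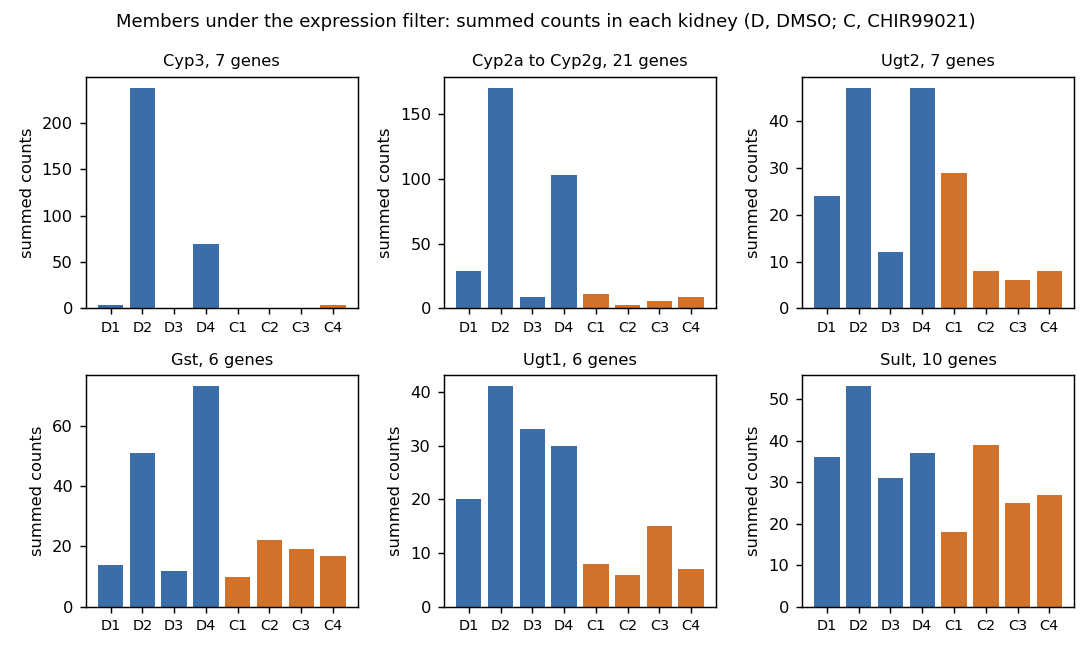
Summed counts (y axis, from 0) in each DMSO (D1 to D4, blue) and CHIR99021 (C1 to C4, orange) kidney for 6 groups of members under the expression filter. The Cyp3 bars are 4, 237, 0 and 69 counts with DMSO and 0 to 4 with CHIR99021, and the Sult bars are 36, 53, 31 and 37 counts with DMSO and 18 to 39 with CHIR99021.

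Of the 22 called members, 20 passed also without DMSO kidneys 2 and 4 (not *Cyp4f13* and *Ugt2b34*), and 16 passed with kidneys 1 and 3 of each group alone. Markers of other cells moved too: 10 macrophage markers summed to 504, 473, 560 and 131 CPM with DMSO and 29.6 to 79.9 CPM with CHIR99021, and their part in the members' values was not tested. Of 9 tested adrenal markers 2 were downregulated, with sums of 30.7 to 59.6 CPM and 23.5 to 67.1 CPM. The 7 listed gut markers in the table summed to 21.9 to 29.2 and 11.5 to 15.2 CPM, and 8 erythroid markers to 8.33 to 27.4 and 7.24 to 16.8 CPM. For 6 fat markers these sums were 112 to 169 and 35.8 to 39.6 CPM, and for 12 kidney markers they were 1465 to 1709 and 885 to 1025 CPM.

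The genes that serve these enzymes were compared from 4 lists, in which 54 of 57 genes were tested, 17 were upregulated, 15 were downregulated and 22 did not pass. The shares were 31.5% upregulated and 27.8% downregulated, near the 23.7% and 25.0% of all tested genes. Counts of the single lists below rest on 13 or 15 tested genes each and are given as a description. Electron donors and other oxidizing enzymes were split evenly, with 4 up and 4 down of 13. *Por*, which supplies electrons to the P450 enzymes, was at 82.2 to 88.5 CPM with DMSO and 127 to 137 CPM with CHIR99021 (log2 fold change 0.62, adjusted p = 3.24e-07). The outer mitochondrial cytochrome b5 gene *Cyb5b* was upregulated (0.43, adjusted p = 3.38e-06), whereas *Cyb5a* of the endoplasmic reticulum was downregulated (-0.44, adjusted p = 0.000365). The flavin monooxygenases *Fmo2* (-2.65, adjusted p = 6.5e-06) and *Fmo5* (-3.03, adjusted p = 0.000608) were downregulated and *Fmo1* was upregulated (1.75, adjusted p = 0.00797, and without DMSO kidneys 2 and 4 a log2 fold change of 1.59, adjusted p = 0.0808), and *Ephx2*, which opens fatty acid epoxides, was downregulated (-1.16, adjusted p = 0.000271).

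Of 13 genes that supply the conjugated groups, 4 were upregulated and 2 downregulated. *Ugdh*, which makes UDP-glucuronic acid, was at 77.0 to 90.4 CPM with DMSO and 131 to 143 CPM with CHIR99021 (log2 fold change 0.70, SE 0.06, adjusted p = 5.27e-07), while the 3 tested Ugt genes that use it were downregulated. The makers of the activated sulfate PAPS went opposite ways, with *Papss1* at 0.37 (adjusted p = 7.97e-05) and *Papss2* at -0.83 (adjusted p = 1.33e-05). *Slc35b2*, which carries PAPS into the Golgi, was upregulated by 0.26 on the log2 scale (adjusted p = 0.00146).

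Of 15 tested genes for other conjugation and export, 5 were upregulated and 3 downregulated. *Mgst2*, a microsomal glutathione transferase, was at 0.820 to 1.24 CPM with DMSO and 2.87 to 4.47 CPM with CHIR99021 (log2 fold change 1.73, SE 0.23, adjusted p = 5.22e-05). The exporter *Abcc4* rose by 0.55 on the log2 scale (adjusted p = 0.0103). *Ggt1*, which cleaves glutathione conjugates at the brush border, was downregulated (-0.99, adjusted p = 0.00948), and *Abcc2*, an apical exporter of conjugates, was downregulated as well (-2.20, adjusted p = 0.02). Both lost their calls without DMSO kidneys 2 and 4, where *Ggt1* was at -0.87 (adjusted p = 0.0596) and *Abcc2* at -1.10 (adjusted p = 0.0851). The remaining downregulated gene, *Gstk1* (-0.46, adjusted p = 0.0219), also lost its call there (adjusted p = 0.0885). So did the upregulated *Nat2* (0.60, adjusted p = 0.0164, and 0.0806 without these kidneys). Among the 13 tested receptors and factors, 4 were upregulated and 6 downregulated, and the drug receptors *Nr1i2* and *Nr1i3* were at most at 0.628 CPM and were not tested.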

How the data were processed

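RNA was sequenced from 4 DMSO and 4 CHIR99021 samples. Per the paper and the labels, the authors used HISAT2 2.0.5 (GRCm38) for alignment and featureCounts for the deposited raw count of each gene. Use of strand in counting was not given in the sources used here. Deposited FPKM values are the authors' counts divided by gene length and sequencing depth. The labels give Trizol and NEBNext Ultra as kits, whereas EASYspin Plus and Hieff NGS MaxUp II are given in the paper. The table also holds the authors' own comparison (mean over samples, fold change, its log2 value, p-value, adjusted p-value, direction and call), and none of it was used.

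Counts were analysed in R 4.3.3 with edgeR 4.0.16: filterByExpr (minimum count 10, minimum total 15), TMM scaling, and the quasi-likelihood test (glmQLFit with robust fitting, glmQLFTest) with group as the only term, adjusted by Benjamini-Hochberg over 16723 genes. CPM are counts scaled to the TMM-adjusted library. The procedure was tested on simulated data with known changes. The members and gene lists were chosen with earlier results of these data known. Genes were named by rule: per family the 8 called members with the smallest p and the 2 most abundant, the 8 with the widest DMSO range, members the paper names (*Cyp4a31*, *Sult1d1*), per pathway list the 4 called genes with the smallest p with *Por*, *Ahr*, *Nfe2l2* and *Hnf4a*, and the 2 most abundant of each marker list. Other genes were named after their values were seen. Some genes given by the rule are not reported here and stay in the tests and counts.

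Equal replicate numbers were taken to stand for the kidneys of 1 embryo. This was inferred, as the paper pairs left and right kidneys but does not tie replicate numbers to embryos. After removal of group means, samples of equal number correlated at 0.111 to 0.346 over 16723 genes and others at -0.180 to 0.0766. Alternatives were the replicate block, DESeq2 1.42.0 (on all genes, with its own filtering), limma-voom (limma 3.58.1), RLE scaling, limma on log2 FPKM with pseudocounts of 1 or 0.1 or on log2(count + 1), no filter, a filter of 1 CPM in 4 samples, and omitted samples. The block for log2(count + 1) was added after the data were seen. Shared 50-base stretches and exon overlaps were counted in GENCODE M21 (GRCm38), in which 97 of the 110 members have the deposited start and end. Promoters are from RefSeq (GRCm38.p6), where 94 of the 110 members matched. Those shown end at the RefSeq start, or before it where the gene's annotated exons begin earlier. The stretch of *Cyp1a1* lies inside the annotated span of its gene, outside the annotated exons.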

Additional observations from a re-analysis of the deposited data

Results flagged for a closer look

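For 54 genes (the tested members and named partner genes), the highest or lowest of 4 samples of a group was set against the other 3 (108 groups of 4), and 3 groups were flagged because 1 sample stood far from the rest. Chance flags about 1 in 20 groups. *Cyp2d22* was highest in DMSO kidney 3, at 27.9 CPM beside 22.2 to 22.9 CPM in the other controls. *Gsta4* was highest in DMSO kidney 3, at 50.3 CPM beside 41.1 to 42.6 CPM. *Gsto2* was highest in DMSO kidney 4, at 1.18 CPM beside 0.866 to 0.914 CPM.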

How the results depend on the processing

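The direction of no called member was reversed under any alternative run. Of the 22 called members, 15 kept their call under all 12 alternatives other than single omitted samples. *Ugt1a10*, which fell under the filter of 1 CPM in 4 samples, kept its call under the other 11, and 21 members kept it with each sample left out in turn. Beside the 14 downregulated members there were 25 with DESeq2, which was run without the expression filter, 24 with edgeR without that filter and 9 with kidneys 1 and 3 of each group alone. For P450 genes the 4 became 12 with DESeq2 and 12 with edgeR without the filter, and for Ugt genes the 3 became 6 and 5. With kidneys 1 and 3 alone, downregulated Gst genes went from 5 to 3, Sult genes from 2 to 1 and partner genes from 15 to 8. With limma on log2(FPKM + 1), 4 Sult genes were downregulated. Over all genes, 3958 upregulated genes became 2404 with kidneys 1 and 3 alone, 2541 with limma on log2(FPKM + 0.1) and 2537 on log2(FPKM + 1), where 6088 and 6064 genes were downregulated beside 4180 in the counts. On these scales the median of all genes was at -0.13 and -0.10. The FPKM values were fitted as deposited, without TMM or other scaling between samples. In the count fit the TMM factors were 1.04 to 1.06 with DMSO and 0.948 to 0.963 with CHIR99021. The filter and the smaller sample number change what can be called, and the cause of the other changes was not tested.

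With each sample left out, 8 to 9 members were upregulated and 14 to 17 downregulated. These ranges were 3 to 4 and 3 to 6 for P450 genes, 5 to 6 and 5 to 6 for Gst genes, 2 to 3 downregulated for Sult genes and 3 to 4 for Ugt genes, with 0 upregulated for both. For partner genes they were 15 to 18 and 13 to 17, and for all genes 3561 to 3812 and 3877 to 4064.

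With the replicate block, which pairs samples of equal number, 9 members were upregulated and 15 downregulated. By family these were 6 and 6 Gst genes, 3 and 4 P450 genes, 0 and 2 Sult genes, and 0 and 3 Ugt genes. For partner genes the counts were 21 and 16, and for all genes 4096 and 4376. Among members the block added *Gstp1* and *Gstz1* and removed none. With 1 sample left out, *Ugt1a6a*, *Cyp2j5* or *Cyp2d26* entered the test in some fits and passed as downregulated. At this depth members with a few counts per sample, such as most Cyp2c and Sult2a genes, could not be compared between groups.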
